A study of Homo sapiens with 9 samples.

Results

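The 10 genes described here encode kinases that signal DNA damage and proteins that recognize and join broken DNA ends: *PRKDC*, *ATM*, *ATR*, *CHEK1*, *CHEK2*, *XRCC5*, *XRCC6*, *TP53BP1*, *LIG4* and *PARP1*. They were chosen by name out of 27860 genes in the tables, with earlier results of these data known. RNA-seq was performed on DU145, an established human prostate cancer cell line, to ask how gene expression changes when the Wnt receptor gene *FZD6* is knocked down. Control cells expressed a scrambled shRNA (3 libraries), and the knockdown cells expressed *FZD6* shRNA1 (3 libraries) or *FZD6* shRNA2 (3 libraries). The labels give the genotype of all 9 samples as WT and name no DNA-damaging treatment. They call the libraries of a group a triplicate without saying whether these were separate cultures, so p-values measure only the spread between these libraries, which may be technical. Values are FPKM, fragments scaled by transcript length and sequencing depth, summed over the RefSeq transcripts of a gene. All 10 members passed the filter of a mean of at least 1 FPKM.

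A double strand break is a cut through both strands of DNA. In non-homologous end joining, the ring-shaped Ku heterodimer, made of the XRCC5 (Ku80) and XRCC6 (Ku70) proteins, slides onto the broken ends and recruits DNA-PKcs, the large kinase encoded by *PRKDC*, and DNA ligase IV, encoded by *LIG4*, seals the ends. ATM responds to double strand breaks and activates CHEK2, whereas ATR responds to single-stranded DNA at stalled replication forks and activates CHEK1. TP53BP1 binds the chromatin beside a break and favors end joining, and PARP1 marks nicked and broken DNA with chains of ADP-ribose.

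*FZD6* was lower with both shRNAs. It was 20.9, 20.5 and 20.04 FPKM in the control libraries, 9.47, 10.2 and 9.80 with shRNA1 and 7.84, 8.79 and 7.69 with shRNA2. The log2 difference between the 6 knockdown and the 3 control libraries was -1.12 (SE 0.0848, limma adjusted p = 0.000491). The estimated depth was 32.3 to 40.4 M fragments a library. Epithelial keratin genes were abundant, with a median of 231 FPKM for *KRT8* over the 9 libraries, and *KLK3* and *TMPRSS2*, genes of luminal prostate cells listed as absent from DU145, did not exceed 0.0168 FPKM. *PTPRC* and *CD3E* of leukocytes and *LUM* of fibroblasts were listed at 0 in every library, and *CD68*, a lysosomal protein gene used as a macrophage marker, had a median of 21.7 FPKM. A feature of these libraries touches most results below. The median change of transcripts of at least 8000 bases minus that of transcripts under 2000 bases, relative to the control mean, was -0.04 to 0.06 on the log2 scale in control libraries and -0.32 to -0.21 in 5 of the 6 knockdown libraries. The library of shRNA2 replicate 2 stood apart at -0.06, close to the control range. Some of the results below are therefore also given without this library. Whether RNA quality or library preparation took part in this trend was not tested.

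In control cells, the levels of the 10 genes, which FPKM puts on a per-length scale, spanned about 2 orders of magnitude. *XRCC6* had the highest mean at 333 ± 3.64 FPKM (SD, n = 3), followed by *XRCC5* at 168 ± 2.39. *PARP1* came next at 94.4 ± 1.01 FPKM, and then *PRKDC* at 27.3 ± 2.03. The checkpoint kinase genes were at 19.7 ± 0.605 FPKM for *CHEK1* and 14.5 ± 1.07 for *CHEK2*. The low end held *TP53BP1* at 8.35 ± 0.279 FPKM, *ATR* at 6.51 ± 0.363, *LIG4* at 4.26 ± 0.250 and *ATM* at 3.13 ± 0.63. No 2 neighbors in this order had overlapping control libraries. Among all tested genes, *XRCC6* stood at percentile 98.4 of the control mean and *ATM* at percentile 20.9. The end-binding subunits of DNA-PK were thus measured at far higher transcript levels than its kinase subunit, with *XRCC6* 1.99 times *XRCC5*. Estimated fragments per library ranged from 523 to 718 for *LIG4* and from 25400 to 34100 for *XRCC6*, so the counting error was at most 4.4% for *LIG4*, against a spread of 5.87% between the control libraries.

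**Figure D1:**
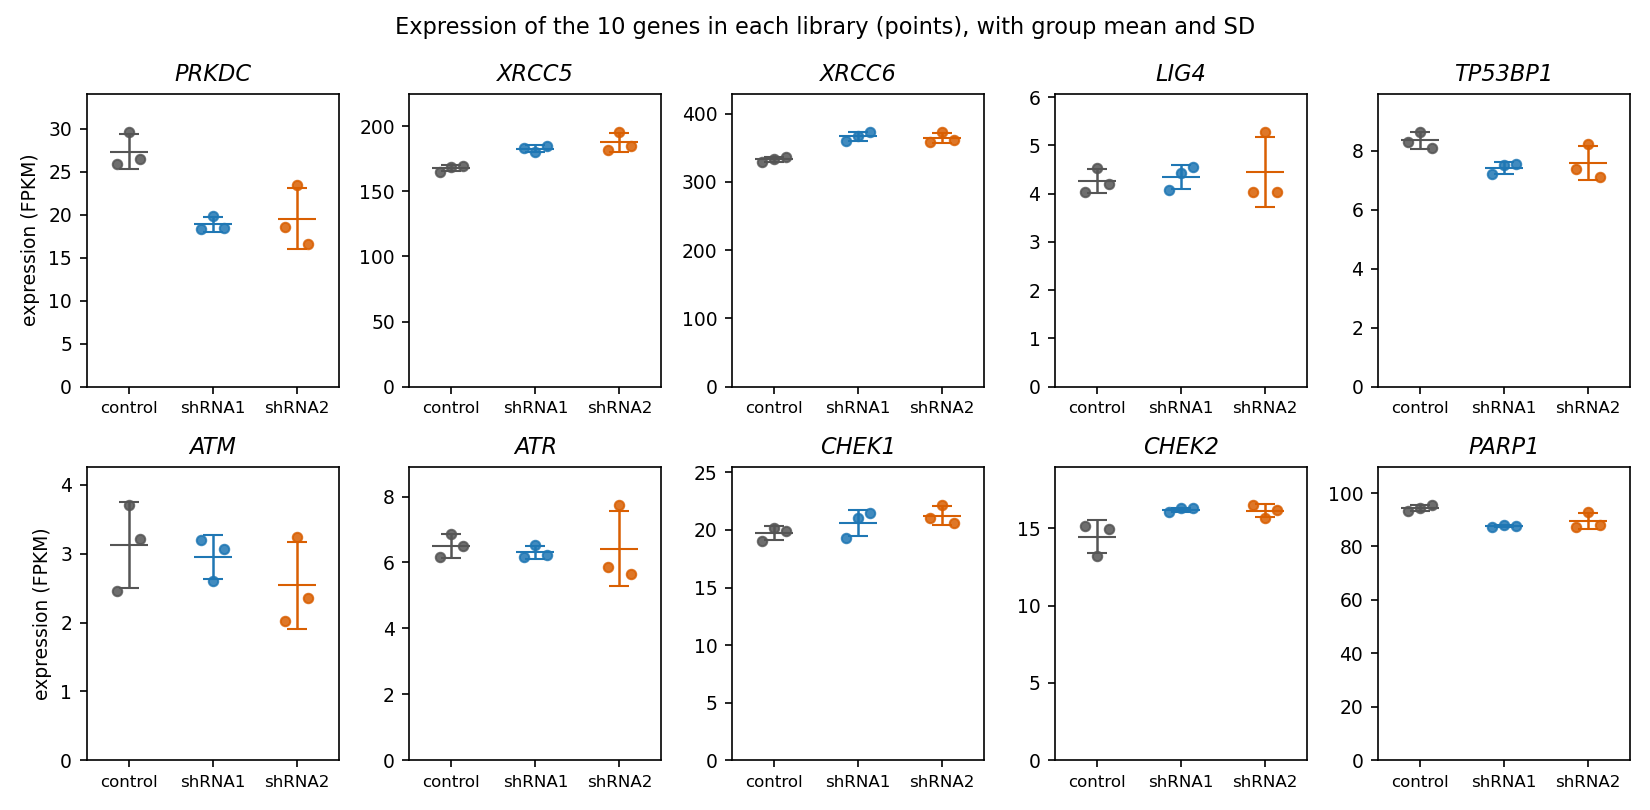
Expression of the 10 genes in FPKM (y axes, starting at 0) in each library (points) of control, *FZD6* shRNA1 and *FZD6* shRNA2 cells (x axis), with the mean and SD of each group of 3. The knockdown libraries of *PRKDC* and *PARP1* all lie below the control libraries, those of *XRCC5*, *XRCC6* and *CHEK2* all lie above them, and in several panels 1 shRNA2 library, replicate 2, lies apart from the other 2.

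With *FZD6* knockdown, 5 of the 10 genes changed. *PRKDC* and *PARP1* fell, and *XRCC5*, *XRCC6* and *CHEK2* rose. The changes were small except for *PRKDC*, whose mean fell from 27.3 to 19.2 FPKM. The other 5, *ATM*, *ATR*, *CHEK1*, *TP53BP1* and *LIG4*, did not pass the limma threshold of 0.05 after Benjamini-Hochberg adjustment over 12509 genes, which is what a call means below. Of all tested genes, 20.6% passed it, 13.5% higher and 7.1% lower, against 3 and 2 of the 10 members. The same 5 members had knockdown libraries that did not overlap the control libraries, as did 25.9% of all tested genes (16.4% higher and 9.46% lower). The median difference was 0.00 on the log2(FPKM + 1) scale over the members and 0.03 over all tested genes. The criteria stated in the study's methods (1.2-fold or more, unadjusted p below 0.01) called 1 member, *PRKDC*, and 2.89% of all tested genes. They were applied here to log2(FPKM + 1) of gene sums that passed the filter, so this share need not match the study's own gene counts. Without control replicate 2, *XRCC6* was the 1 member called, against 7.97% of all tested genes. Without shRNA2 replicate 2, 6 members were called, *TP53BP1* being the sixth, against 26% of all tested genes. In bulk samples, fewer cells of a kind and less RNA per cell cannot be told apart.

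*PRKDC*, the gene of DNA-PKcs, was lower with both shRNAs. It lies on the minus strand at chr8:47773108-47960183 (GRCh38, GENCODE v29). Its control libraries were at 25.9, 29.7 and 26.5 FPKM. With shRNA1 they were at 18.3, 19.9 and 18.4, and with shRNA2 at 18.5, 23.4 and 16.6. All 6 knockdown libraries lay below all 3 controls, and the highest of them was shRNA2 replicate 2, the library that stood apart. The mean fell by 29.8%, a log2 difference of -0.49 (SE 0.0942, limma adjusted p = 0.00962). The difference was -0.51 with shRNA1 (SE 0.115, limma adjusted p = 0.0232) and -0.48 with shRNA2 (SE 0.115, limma adjusted p = 0.0206), measured against the same control libraries. It was called in 21 of 22 alternative settings, between -0.55 and -0.31, and the exception was the fit without control replicate 2, with a limma adjusted p of 0.0511. With 1 shRNA at a time, the call was lost in 6 of 22 settings for shRNA1 and 4 of 22 for shRNA2, each with the difference still negative. The *PRKDC* transcript has 13507 bases, and long transcripts were lower in the knockdown libraries as a class. With the trend in length removed from each library, the difference was -0.31 (SE 0.0526, limma adjusted p = 0.0103). Among the 538 tested genes with transcripts of at least 8000 bases, the change of *PRKDC* before this removal stood at percentile 3.

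Both Ku genes rose, by a similar proportion. *XRCC5*, at chr2:216107464-216206303 on the plus strand, was at 165, 169 and 169 FPKM in control libraries. It was at 183, 180 and 185 FPKM with shRNA1 and at 182, 196 and 185 with shRNA2. Every knockdown library lay above every control library, and the mean rose by 10.4%. The log2 difference was 0.14 (SE 0.0305, limma adjusted p = 0.0143). *XRCC6*, at chr22:41621119-41664048 on the plus strand, was at 329, 334 and 336 FPKM in control libraries. With shRNA1 it was at 360, 368 and 373 FPKM, and with shRNA2 at 359, 373 and 362. The groups again did not overlap, and the mean rose by 9.83%, a log2 difference of 0.13 (SE 0.0239, limma adjusted p = 0.00769). With the length trend removed, the differences were 0.13 for *XRCC5* (limma adjusted p = 0.0160) and 0.09 for *XRCC6* (limma adjusted p = 0.0427). Both calls ended under quantile normalization, where the differences were 0.07 (limma adjusted p = 0.297) and 0.03 (limma adjusted p = 0.496), and that of *XRCC5* also ended without control replicate 1 (limma adjusted p = 0.0647) or control replicate 2 (limma adjusted p = 0.0526). That of *XRCC6* also ended in the fit that joined a replicate block to removal of the length trend (0.09, limma adjusted p = 0.0644). Highly expressed genes tended to be higher in the knockdown libraries. Of the 893 genes at 100 FPKM or more, 37.8% were called higher with a median difference of 0.105, and *XRCC5* and *XRCC6* stood at percentiles 63.6 and 61 of this class. Under quantile normalization the calls over all tested genes split into 8.37% higher and 8.46% lower.

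Because both Ku subunits form 1 heterodimer, their balance was compared within each library, where library scaling drops out. The log2 ratio of *XRCC5* to *XRCC6* FPKM was -0.99 ± 0.0081 in control libraries (SD, n = 3) and -0.98 ± 0.036 in knockdown libraries (SD, n = 6). The difference of 0.0075 was smaller than the spread between libraries (two-sided exact permutation test, p = 0.786). With the length trend removed it was 0.0473 (two-sided exact permutation test, p = 0.0714). The log2 ratio of *PRKDC* to the geometric mean of the Ku genes was -3.17, -3.001 and -3.17 in control libraries. In the 6 knockdown libraries this ratio lay between -3.96 and -3.53. The difference was -0.65, and since the libraries of all 3 genes were already separated, it describes the same values and adds no test. *PRKDC* transcripts are the longest of the 10 genes, so this ratio also holds the length trend.

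The promoter sequences of members that changed are shown as a description of the letters upstream of the start. Their part in the changes was not tested. Of these 5 genes, *CHEK2*, *XRCC6* and *PARP1* had an entry in the RefSeq promoter table (GRCh38.p14), and *PRKDC* and *XRCC5* did not. The 250 bases before the RefSeq start are printed 5′ to 3′ on the strand of the gene, from chr22:28741821-28742070 (minus strand) for *CHEK2*, chr22:41621045-41621294 (plus strand) for *XRCC6* and chr1:226408094-226408343 (minus strand) for *PARP1*. Capitals mark matches, on either strand, to a GC box (GGGCGG, or CCGCCC on the other strand) or a CCAAT box (CCAAT, or ATTGG).
CHEK2: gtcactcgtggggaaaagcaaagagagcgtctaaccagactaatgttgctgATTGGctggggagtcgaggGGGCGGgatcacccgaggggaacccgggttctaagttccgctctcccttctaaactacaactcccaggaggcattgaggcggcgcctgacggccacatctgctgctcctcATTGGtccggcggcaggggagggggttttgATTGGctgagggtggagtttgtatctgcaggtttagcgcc
XRCC6: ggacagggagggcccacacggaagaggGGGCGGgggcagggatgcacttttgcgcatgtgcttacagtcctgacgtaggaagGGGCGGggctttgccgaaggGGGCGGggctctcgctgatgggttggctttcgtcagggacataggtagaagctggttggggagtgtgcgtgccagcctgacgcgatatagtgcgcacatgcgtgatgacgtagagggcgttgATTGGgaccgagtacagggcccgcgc
PARP1: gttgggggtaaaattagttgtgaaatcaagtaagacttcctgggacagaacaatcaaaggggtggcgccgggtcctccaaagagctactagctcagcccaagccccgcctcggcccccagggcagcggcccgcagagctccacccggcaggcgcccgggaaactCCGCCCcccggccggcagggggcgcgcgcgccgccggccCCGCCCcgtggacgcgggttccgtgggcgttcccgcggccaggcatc
The *CHEK2* window held 1 GC box and 3 CCAAT boxes, the *XRCC6* window 3 GC boxes and 1 CCAAT box, and the *PARP1* window 2 GC boxes and no CCAAT box. Among 35116 promoter windows of the same length, 42.6% held a GC box and 32.0% a CCAAT box. No match was found in the 3 windows to a TATA box (TATAAA, in 10.7% of all windows) or to the E2F motifs TTTCCCGC, TTTGGCGC, TTTCGCGC and TTTGCCGC (in 2.8%). Windows of members that were not called held such boxes too, with 2 GC boxes and 1 CCAAT box for *TP53BP1* and 2 GC boxes for *ATR*. *LIG4* had 5 windows, and all but the most upstream of them held a GC box or a CCAAT box. These matches describe the letters and are not evidence of binding.

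*LIG4*, whose product seals the ends joined through Ku, showed no detectable difference. It was at 4.04, 4.53 and 4.20 FPKM in control libraries, at 4.07, 4.42 and 4.56 with shRNA1 and at 4.03, 5.28 and 4.04 with shRNA2. The groups overlapped, and shRNA2 replicate 2 was the highest library of all. The log2 difference was 0.03 (95% interval -0.13 to 0.20, limma adjusted p = 0.771).

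*TP53BP1*, at chr15:43403061-43510728 on the minus strand, narrowly missed the threshold. Its control libraries were at 8.32, 8.65 and 8.10 FPKM, and its knockdown libraries at 7.20, 7.52 and 7.57 with shRNA1 and 7.40, 8.25 and 7.12 with shRNA2. Only shRNA2 replicate 2 reached the control range. The log2 difference was -0.14 (SE 0.0431, limma adjusted p = 0.0534), and without that library it was -0.16 (limma adjusted p = 0.00872). The transcript has 10261 bases, and with the length trend removed the difference was 0.01 (SE 0.0238, limma adjusted p = 0.868). Its change stood at percentile 49.4 of genes with transcripts of at least 8000 bases, near the middle of its class.

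The apical kinases *ATM* and *ATR* were measured at low levels and did not pass the threshold. *ATM*, at chr11:108222484-108369102 on the plus strand, was at 2.46, 3.71 and 3.22 FPKM in control libraries. It was at 3.20, 2.60 and 3.07 FPKM with shRNA1 and 2.02, 3.24 and 2.36 with shRNA2. The groups overlapped throughout, and the control libraries themselves varied by 20% (coefficient of variation). The log2 difference was -0.14 (95% interval -0.44 to 0.16, limma adjusted p = 0.488), and 0.04 with the length trend removed (limma adjusted p = 0.842). Part of this spread came with 2 of the 4 *ATM* accessions, which cover only a short stretch at its 5′ end. An alternative chosen after the values were seen kept the 2 accessions that span the whole locus. Their sum was 1.84, 2.16 and 1.85 FPKM in control libraries, and 1.46 to 1.95 in the knockdown libraries, with an overlap through shRNA2 replicate 2. On this sum the log2 difference was -0.18 (SE 0.0634, limma adjusted p = 0.0784). *ATR*, at chr3:142449235-142578826 on the minus strand, was at 6.15, 6.88 and 6.50 FPKM in control libraries, at 6.17, 6.52 and 6.22 with shRNA1 and at 5.87, 7.74 and 5.65 with shRNA2. The shRNA2 libraries held both the lowest and the highest value. The log2 difference of *ATR* was -0.03 (95% interval -0.22 to 0.15, limma adjusted p = 0.797) and 0.08 with the length trend removed (limma adjusted p = 0.366). Both *ATM* and *ATR* thus turned sign with that removal, with neither value past the threshold.

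Of the downstream kinases, *CHEK2* rose slightly and *CHEK1* did not pass the threshold. *CHEK2*, at chr22:28687743-28742422 on the minus strand, was at 15.2, 13.2 and 15.0 FPKM in control libraries, at 16.1, 16.3 and 16.3 with shRNA1 and at 16.5, 15.7 and 16.2 with shRNA2. The groups did not overlap, and control replicate 2 was the lowest library. The log2 difference of 0.15 (SE 0.0415, limma adjusted p = 0.0333) was lost in 11 of 22 alternative settings, among them without control replicate 2 (0.09, limma adjusted p = 0.0798) and with the length trend removed (0.09, limma adjusted p = 0.176). *CHEK2* has near-identical pseudogene copies, of which *CHEK2P2* was listed at 0.980 to 1.37 FPKM, and reads could be split between them, so its value is uncertain. The same holds for *XRCC6* and *PARP1*, which also have pseudogenes. *CHEK1*, at chr11:125625136-125676255 on the plus strand, was at 19.0, 20.2 and 19.9 FPKM in control libraries. With shRNA1 it was at 19.3, 21.0 and 21.5 FPKM, and with shRNA2 at 21.0, 22.2 and 20.6. All 3 libraries of shRNA2 lay above the controls, whereas those of shRNA1 overlapped them. The log2 difference was 0.08 (95% interval -0.01 to 0.18, limma adjusted p = 0.202).

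*PARP1*, at chr1:226360691-226408079 on the minus strand, was at 93.4, 94.5 and 95.4 FPKM in control libraries. It was at 87.1, 88.0 and 87.6 FPKM with shRNA1 and at 87.3, 93.0 and 88.2 with shRNA2. The groups did not overlap, though shRNA2 replicate 2 came within 0.386 FPKM of the lowest control. The mean fell by 6.25%, a log2 difference of -0.09 (SE 0.0274, limma adjusted p = 0.0446), and -0.08 with the length trend removed (limma adjusted p = 0.0450). The call was lost in 11 of 22 alternative settings, including 8 of 9 fits that left out 1 library, and without shRNA2 replicate 2 it was stronger (-0.11, limma adjusted p = 0.00724). At 3958 bases the *PARP1* transcript is of middle length, and its change stood at percentile 20.4 of genes of 3000 to under 5000 bases.

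Each shRNA was next compared with the controls on its own. With shRNA1, *XRCC5* and *XRCC6* were called higher and *PRKDC* and *PARP1* lower, against 18.8% of all tested genes called in either direction (11.7% higher and 7.19% lower). With shRNA2, *XRCC5* and *XRCC6* were called higher and *PRKDC* lower, against 26.7% of all tested genes (15.3% higher and 11.4% lower). Without shRNA2 replicate 2, 6 members were called with shRNA2, the additional ones being *PARP1*, *TP53BP1* and *ATR*, all lower. Without shRNA1 replicate 3, 0 members were called with shRNA1. Both comparisons use the same 3 control libraries. The test of shRNA2 against shRNA1 called 0 of 10 members by limma and 6.71% of all tested genes (1.92% higher and 4.79% lower with shRNA2), among which *FZD6* itself was lower with shRNA2 (-0.25, limma adjusted p = 0.0273). At an unadjusted p under 0.05, 0 of the members differed between the shRNAs. The widest of the member intervals was that of *ATM* (-0.17, 95% interval -0.52 to 0.18), and the interval of *PRKDC* ran from -0.23 to 0.30, so differences between the shRNAs of that size could not be seen here.

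**Figure D2:**
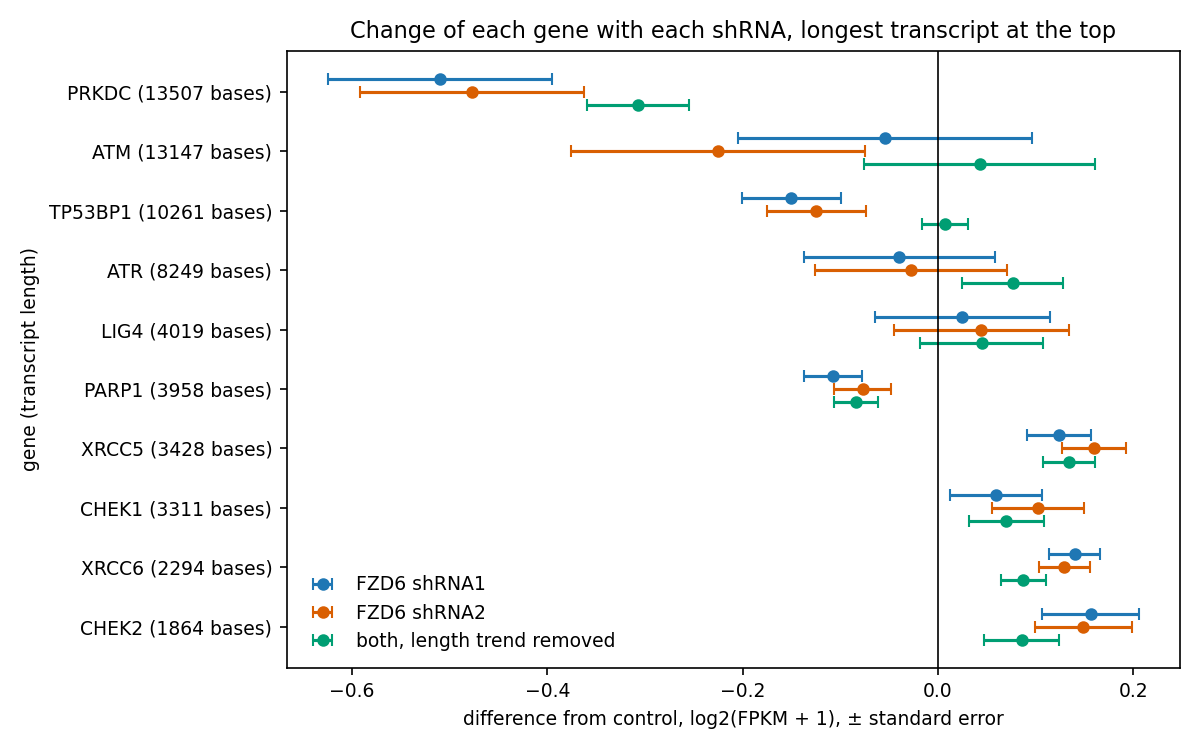
Difference from control on the log2(FPKM + 1) scale (x axis, with standard errors) for each of the 10 genes (y axis, longest transcript at the top) with shRNA1, with shRNA2, and over both after the length trend was removed. *PRKDC* stays below 0 after the removal, at -0.31, whereas *TP53BP1* moves from -0.14 over both shRNAs to 0.01.

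Members with longer transcripts tended to have lower differences, though not in strict order, since *PARP1* lay below the longer *LIG4* and *ATR*. The 4 genes with transcripts of at least 8000 bases, *PRKDC*, *ATM*, *TP53BP1* and *ATR*, had differences of -0.49 to -0.03, and the 2 with the shortest, *XRCC6* (2294 bases) and *CHEK2* (1864 bases), had 0.13 and 0.15. Across the 10 genes, which were measured in the same libraries, length and change had a Spearman's rho of -0.927, a description over genes that are not replicates. Across 12295 tested genes with a length it was -0.437. Of genes with transcripts of at least 8000 bases, 32.5% were called lower and 1.67% higher, with a median difference of -0.14. Of the 4246 genes under 2000 bases, 1.11% were called lower and 22.6% higher, with a median of 0.09. Between these extremes, the share called lower was 2.87% at 2000 to under 3000 bases, 8.33% at 3000 to under 5000 bases and 19.4% at 5000 to under 8000 bases, and the share called higher was 15.5%, 7.33% and 3%. The members were read against these classes. *ATM*, *TP53BP1* and *ATR* stood at percentiles 47.6, 49.4 and 76 of the longest class, and *PRKDC* at percentile 3. *XRCC5* stood at percentile 92.9 of genes of 3000 to under 5000 bases, whose median difference was 0.00, and *CHEK1*, *LIG4* and *PARP1* at 80.3, 64.5 and 20.4 of the same class. After removal of the trend, rho was -0.721 over the 10 genes and 0.0161 over all. In that fit 4 of the 10 members were called, *PRKDC* and *PARP1* lower and *XRCC5* and *XRCC6* higher, against 12.2% of all tested genes (6.51% higher and 5.64% lower).

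**Figure D3:**
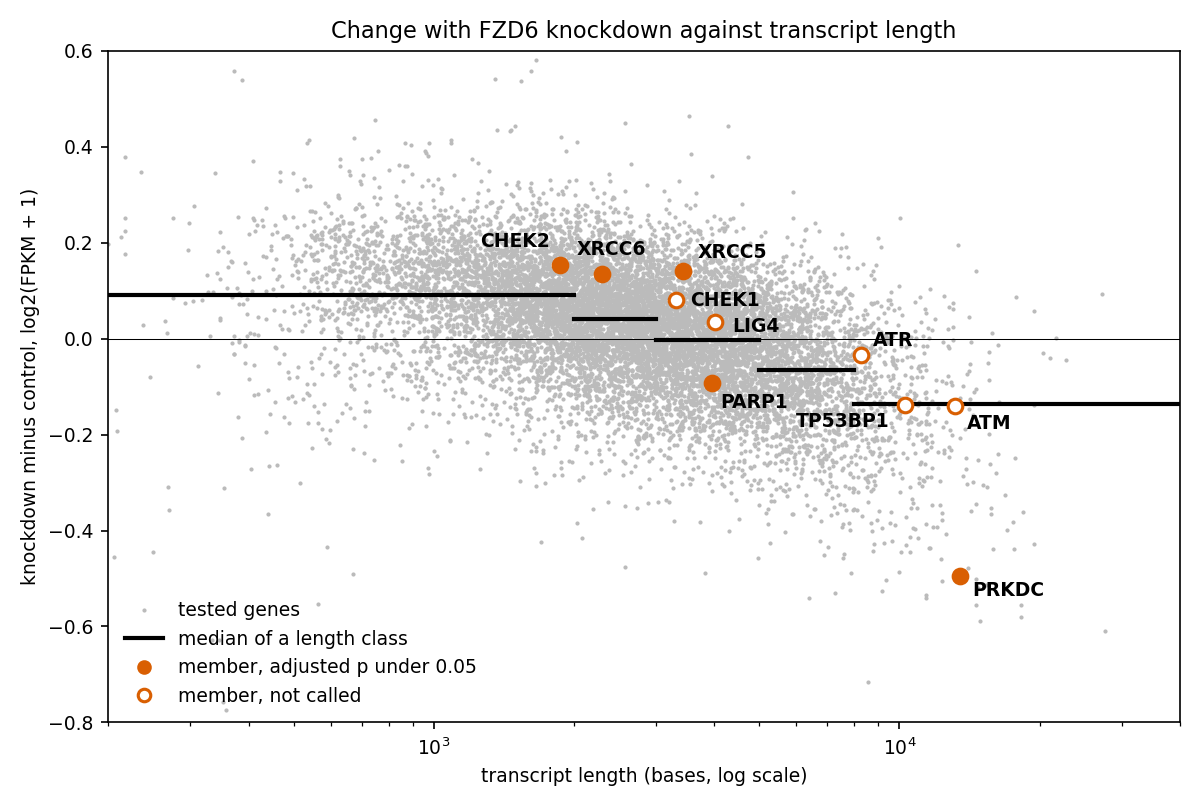
Difference between knockdown and control on the log2(FPKM + 1) scale (y axis) against transcript length in bases (x axis, log scale) for tested genes (gray), with the median of each of 5 length classes (black bars) and the 10 members (orange, filled where the limma adjusted p was under 0.05); 452 of 12295 genes lie outside the axes. The bars descend from 0.09 to -0.14, *ATM* and *TP53BP1* lie on the bar of the longest class, and *PRKDC* lies far below it.

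The tables list RefSeq transcripts 1 by 1, and the 10 genes had 42 accessions, of which 19 passed the filter. By limma 0 of these 19 were called, against 1.09% of 19780 tested accessions (0.516% higher and 0.576% lower), and 5 had an unadjusted p under 0.05. A single accession held nearly all of the *PRKDC* level, 99.7% of the control sum, and went from 27.3 to 19.1 FPKM (limma adjusted p = 0.0548 over accessions). *XRCC5* and *PARP1* have 1 accession each. For *XRCC6*, the leading accession held 95.6% of the sum in control libraries and 96.0% in knockdown libraries, and for *TP53BP1* 97.4% and 96.2%. The share of the leading *CHEK2* accession was 70.4% ± 11.9 (SD, n = 3) in control libraries and 57.9% ± 9.92 (SD, n = 6) in knockdown libraries, with overlapping FPKM. The leading *ATR* accession held 88.3% ± 12.1 of the sum in control libraries (SD, n = 3) and 76.8% ± 14.7 in knockdown libraries (SD, n = 6). Differences in these shares were not tested. The 11 accessions of *LIG4* overlap so widely that Cufflinks divided the reads among them differently from library to library, and their levels are not given.

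The surrounding pathway was read from 58 other genes of break signaling and end joining, all of which passed the filter. With knockdown, 8 were called higher and 3 lower, 19.0% of the 58 against 20.6% of all tested genes. Their median difference was 0.04, against 0.03 over all tested genes. Without control replicate 2, 4 of the 58 were called, against 7.97% of all tested genes. Without shRNA2 replicate 2, 17 of the 58 were called, against 26% of all tested genes. *APTX*, *TDP2* and *TRRAP* were called in every one of the 9 fits that left out a library. Over all tested genes, 7278 of 12509 differences were positive. Of 11 further end joining genes, 10 had positive differences and 3 were called, all higher, against 13.5% of all tested genes called higher. These were *XRCC4*, the partner of ligase IV (6.36 to 7.26 FPKM, log2 difference 0.17, limma adjusted p = 0.0324), *APTX*, which clears abortive ligation products (0.19, limma adjusted p = 0.0108), and *TDP2*, which removes trapped topoisomerase II from DNA ends (37.6 to 43.4 FPKM, 0.20, limma adjusted p = 0.00351). The median difference of this list was 0.08, and 0.03 with the length trend removed. Its transcripts were short, with a median of 2094 bases. *TDP2* was called in 22 of 22 alternative settings, and *XRCC4* lost its call with the length trend removed (0.09, limma adjusted p = 0.232), as did *APTX* (0.12, limma adjusted p = 0.117).

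Among 13 sensors and mediators, 1 was called higher and 1 lower, against 13.5% and 7.1% of all tested genes. The median difference of this list was 0.04. *H2AX*, the histone variant that ATM, ATR and DNA-PKcs phosphorylate beside a break, averaged 78.5 ± 1.72 FPKM across control libraries (SD, n = 3) and rose to 97.5 ± 6.97 with knockdown (SD, n = 6). The log2 difference was 0.31 (SE 0.0615, limma adjusted p = 0.0113), and the limma adjusted p was 0.0551 without control replicate 2. Its transcript is short, at 1614 bases, and the difference was 0.23 with the length trend removed (limma adjusted p = 0.0314). *MDC1*, the scaffold that binds phosphorylated H2AX, fell from 25.8 to 22.8 FPKM, a difference of -0.17 (limma adjusted p = 0.0266), and -0.07 with the trend removed (limma adjusted p = 0.265).

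All 11 genes that help ATR become active had positive differences over both shRNAs, as did 7278 of 12509 tested genes, and 3 were called higher, against 13.5% of all. The median of these 11 genes, 0.04, lay close to the 0.03 of all tested genes. With shRNA1 alone, 8 were positive and 1 was called higher, against 11.7% of all. With shRNA2 alone, 10 were positive and 4 were called higher, against 15.3% of all. The values that follow are over both shRNAs. *TIPIN*, of the fork protection complex, rose by 0.21 (limma adjusted p = 0.0141), and *RAD1* and *HUS1*, members of the 9-1-1 clamp, by 0.17 each (limma adjusted p = 0.0412 and 0.0315). With the length trend removed, *TIPIN* was at 0.14 (limma adjusted p = 0.0992) and *HUS1* at 0.15 (limma adjusted p = 0.0683), both no longer called. *RAD1* stayed called in that fit at 0.19 (limma adjusted p = 0.0254) but lost its call in 9 of 22 alternative settings. The *HUS1* value was -0.01 (limma adjusted p = 0.939) when only protein-coding accessions were summed. Among 8 checkpoint targets, 1 was called, against 20.6% of all tested genes. *CDC25A*, the phosphatase that CHEK1 marks for destruction, rose from 5.00 to 5.94 FPKM (0.21, limma adjusted p = 0.0161). *WEE1*, the kinase that restrains entry into mitosis, was at 8.39 ± 0.459 FPKM in control (SD, n = 3) and 7.75 ± 0.415 in knockdown libraries (SD, n = 6), a log2 difference of -0.10 (limma adjusted p = 0.163). With shRNA2 alone it was called lower (-0.15, limma adjusted p = 0.0337), and with shRNA1 it was not (-0.05, limma adjusted p = 0.452). The test between the shRNAs gave -0.10 (limma adjusted p = 0.200). *PKMYT1*, its relative that also phosphorylates CDK1, had a difference of 0.12 (limma adjusted p = 0.0909). Of 9 genes of PARP biology and alternative end joining, 0 were called by limma in knockdown against control, against 20.6% of all tested genes. In this list 2 genes had an unadjusted p under 0.05, and the median difference was 0.05.

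The remaining list holds kinases of the same PI3K-like family as *PRKDC*, *ATM* and *ATR*, with their chaperones. Of 6 genes, 5 had negative differences, 1 of them only -0.0017, and 2 were called lower, against 7.1% of all tested genes and 32.5% of those with transcripts of at least 8000 bases. The median was -0.17, and -0.07 with the length trend removed. *MTOR*, the growth control kinase with a transcript of 8677 bases, fell from 15.0 to 12.1 FPKM (-0.29, limma adjusted p = 0.0135), and *TRRAP*, the pseudokinase scaffold of histone acetyltransferase complexes with 12616 bases, fell from 7.58 to 5.47 FPKM (-0.41, limma adjusted p = 0.00415). With the length trend removed they were at -0.17 (limma adjusted p = 0.0319) and -0.23 (limma adjusted p = 0.00717).

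**Figure D4:**
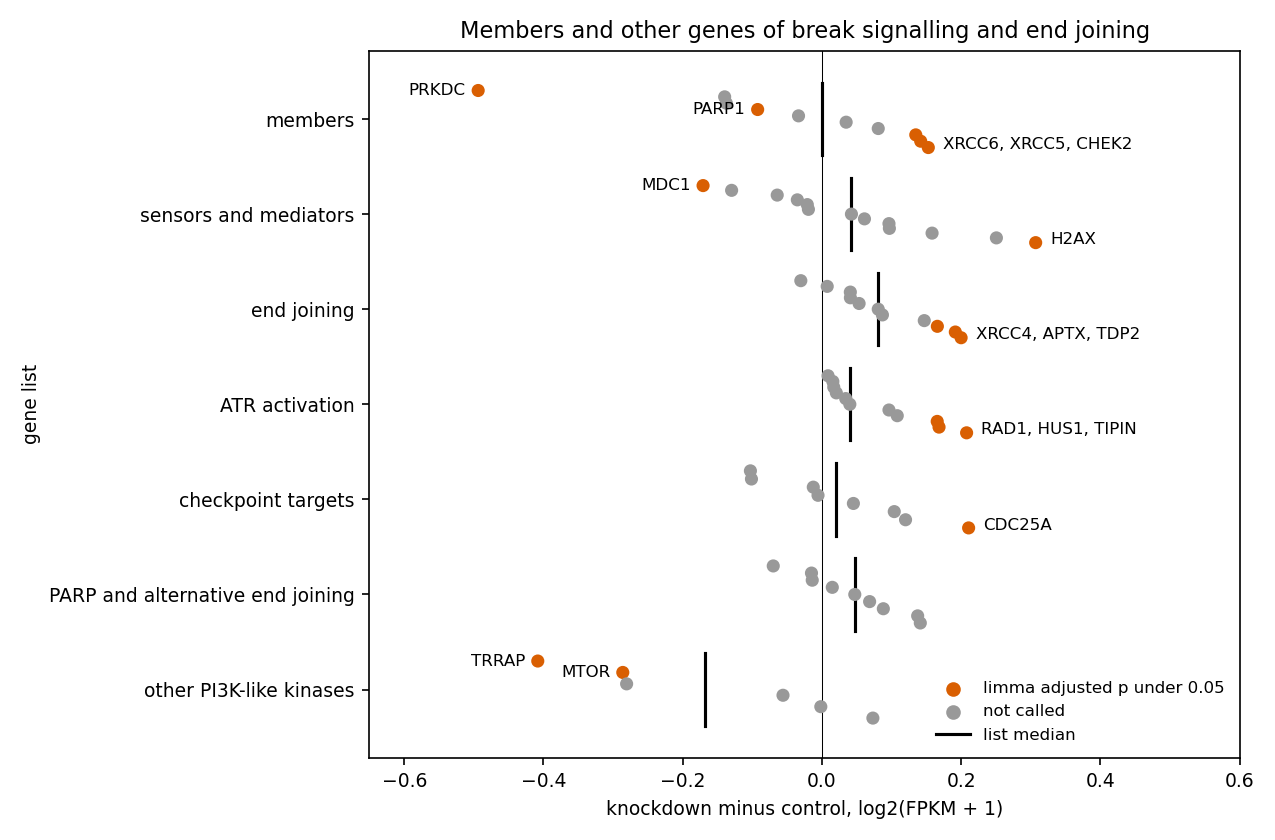
Difference between knockdown and control on the log2(FPKM + 1) scale (x axis) for the 10 members and 6 lists of related genes (y axis), each point a gene, orange where the limma adjusted p was under 0.05 (names printed), with the list median as a black line. The list medians lie between -0.17 for the other PI3K-like kinases and 0.08 for end joining.

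Several of the 10 genes start within 1000 bases of a gene transcribed the other way. Whether transcript length or shared regulation took part in the differences between such neighbors was not tested. *MCM4*, a subunit of the replicative helicase, starts 2 bases from *PRKDC* and has a transcript of 4107 bases. It was at 78.4, 79.4 and 76.8 FPKM in control libraries, at 85.3, 84.2 and 86.0 with shRNA1 and at 91.6, 91.2 and 85.5 with shRNA2. The groups did not overlap, and the log2 difference was 0.16 (SE 0.0349, limma adjusted p = 0.0161), opposite in sign to that of *PRKDC*. With the length trend removed it was 0.17 (limma adjusted p = 0.0147). The other tested neighbors did not pass the threshold: *NPAT* beside *ATM* had a difference of 0.02 (limma adjusted p = 0.832), *HSCB* beside *CHEK2* 0.10 (limma adjusted p = 0.187), *DESI1* beside *XRCC6* 0.11 (limma adjusted p = 0.195) and *ABHD13* beside *LIG4* 0.14 (limma adjusted p = 0.111). *DESI1* was called higher with shRNA2 (0.19, limma adjusted p = 0.00626) and differed between the shRNAs (0.16, limma adjusted p = 0.0279). *MAP1A* beside *TP53BP1* was under the filter at 0.393 FPKM in control libraries. For *ATR*, *CHEK1*, *XRCC5* and *PARP1* no such neighbor started within 1000 bases.

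The 5 tested genes whose pattern over the 9 libraries lay closest to that of *PRKDC*, by root mean square distance of centered log2 values, were *UBR4* (0.0492), *CENPF* (0.0538), *RNF213* (0.0548), *AHNAK2* (0.0576) and *ASH1L* (0.0598). The root mean square of *PRKDC* itself around its mean was 0.266. The transcripts of all 5 were long, from 10307 bases for *CENPF* to 18254 for *AHNAK2*. Their log2 differences ranged from -0.58 for *AHNAK2* to -0.41 for *ASH1L*.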

How the data were processed

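The analysis used the RNA-seq tables of 9 DU145 libraries, 3 each of control, *FZD6* shRNA1 and *FZD6* shRNA2 cells, grouped by the deposited labels. The authors used a stranded mRNA kit, aligned reads by STAR and derived FPKM by Cufflinks, and the deposited tables give FPKM, already scaled for depth and transcript length, for each RefSeq transcript and locus. The submitters' processing notes name hg38, to which the loci belong, whereas the methods name mm10, and tool versions are not given in the sources used here. Whether Cufflinks was run with the strand of the reads is not stated.

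A RefSeq table of GRCh38.p14 gave the gene of 72645 of 73240 accessions, and FPKM were summed per gene. Genes holding an entry with a Cufflinks status other than OK (42) were dropped. Those averaging 1 FPKM or more (12509) were tested as log2(FPKM + 1), so changes of low genes are understated. Without counts in the tables, count models were not used. An estimate of depth came from the confidence bounds of single-transcript genes, and counting errors cover counting only. Precision is limited by the 3 libraries per group.

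Knockdown (6 libraries) was compared with control (3) in R 4.3.3 by limma 3.58.1, adjusting p by Benjamini-Hochberg over all tested genes, at a threshold of 0.05. Single shRNAs were compared in a model with 3 groups. Ratios were tested by two-sided exact permutation. Transcript lengths came from GENCODE v29 (12295 of the tested genes, 98.3%), weighted by FPKM over the accessions with a length, and for *ATM* from 1 of its 4 accessions. The length trend was removed from each library with lowess (span 0.3). The fits were tested on simulated data with noise independent between genes. A length trend was simulated as equal in all knockdown libraries, so trends that differ between libraries were not covered. Python 3.11.15 with numpy 2.4.6, pandas 2.3.3 and matplotlib 3.10.9 was used for tables and plots.

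The members and the lists were chosen with earlier results of these data known. Named genes are the 10 members, *FZD6*, the genes of the pathway lists called in knockdown against control with *WEE1* and *PKMYT1*, genes that start within 1000 bases of a member on the opposite strand, and the 5 nearest in pattern to the member with the largest change. Replicate numbers of the labels were checked for pairing through the correlation of deviations from group means. It ran from -0.071 to 0.111 for libraries of the same number and from -0.123 to 0.184 for others, so the numbers were not treated as pairs. Alternatives were pseudocounts of 0.1 and 0.01, no filter or a filter of 5 FPKM, median centring, quantile normalization, removal of the length trend, the replicate number as a block, an intensity trend, other sums over accessions or loci, the study's criteria, fewer libraries in the fit and leaving out each library. Only the sum of full-length *ATM* accessions was added after the values were seen. The values of some marker genes are not reported here.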

Additional observations from a re-analysis of the deposited data

Results flagged for a closer look

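Among the 6 knockdown libraries, shRNA2 replicate 2 lay far above the other 5 in 2 of 11 genes checked (the 10 members and *FZD6*). For *XRCC5* it was at 196 FPKM, with a gap to the nearest library of 0.662 of the range of the 6. For *PARP1* it was at 93.0 FPKM, with a gap of 0.82 of the range. Both gaps exceed Dixon's 95% critical value for 6 libraries, which chance would pass for 0.55 of 11 genes. Without this library, the log2 difference between knockdown and control was 0.13 for *XRCC5* and -0.11 for *PARP1*, and both remained past the limma threshold. The same library had the weakest length trend of the knockdown libraries, and the part of that trend in these values was not tested.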

How the results depend on the processing

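Of the members, 5 were called in knockdown against control. The number was 3 under quantile normalization, 2 with the replicate block and the length trend removed, 1 by the study's criteria, and 1 to 6 when 1 library was left out. With shRNA1 it was 4, falling to 2 with the replicate block and the length trend removed and ranging from 0 to 5 with 1 library left out. With shRNA2 it was 3, ranging from 2 to 6. Of the other pathway genes, 11 were called, and 6 with the replicate block and the length trend removed. The mean of both shRNA contrasts called 17, the study's criteria 3, and fits with 1 library left out 4 to 17. Over all tested genes, the share called in knockdown against control was 20.6%, 16.8% under quantile normalization and 2.89% by the study's criteria. This share was 8.87% with the replicate block and the length trend removed, and 27.6% for the mean of both shRNA contrasts. With 1 library left out it ran from 7.97% to 26%. Of member accessions 0 were called by limma, against 1 with no filter, 3 with a filter of 5 FPKM, 3 with an intensity trend, and 0 to 1 with 1 library left out. The difference in the log2 Ku ratio was 0.0075, ranging from -0.0034 to 0.017 with 1 library left out, and 0.0473 with the length trend removed (two-sided exact permutation test, p = 0.0714). The cause was not tested, except that leaving out libraries leaves fewer to estimate the spread.

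The replicate block by itself kept the count of members at 5, with *PARP1* lost (limma adjusted p = 0.0593) and *TP53BP1* gained (0.0431), and moved the count over all genes from 2578 to 2377. It lost *XRCC5* with shRNA1 (0.0519).

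Signs turned for genes not past the threshold, and for *HUS1* (-0.0106 with protein-coding accessions only). With the length trend removed, with or without the replicate block, *ATM*, *ATR* and *TP53BP1* were at 0.0427, 0.0763 and 0.0073 in knockdown, at 0.1475, 0.0794 and 0.008 with shRNA1, and *ATR* and *TP53BP1* at 0.0733 and 0.0066 with shRNA2. With 1 library left out, *ATR* ranged from -0.0842 to 0.0013 in knockdown and from -0.1511 to 0.0461 with shRNA2, *ATM* from -0.1748 to 0.046 with shRNA1, and *LIG4* from -0.01 to 0.0717 in knockdown, from -0.0051 to 0.0631 with shRNA1 and from -0.0622 to 0.0991 with shRNA2. The difference of *ATM* between the shRNAs was 0.0325 over full-length accessions.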
